A study of Mus musculus with 18 samples.

Results

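The 38 genes described here are antiviral interferon-stimulated effectors and sensors of the mouse, listed by symbol, without the guanylate-binding proteins, the immunity-related GTPases, the interferon regulatory factors and the chemokines. On the array 36 of the 38 were measured, among 22485 genes with a symbol. Ifi205 and Ifi44 matched no probe by symbol, so they have no expression values and enter the promoter counts only. Gene expression was measured in macrophages grown for 7 days in 10 ng/ml M-CSF from the marrow of mice aged 8 to 10 weeks, which carried Nrf2 (Nrf2+/+, wild type) or lacked it (Nrf2-/-, knockout). NRF2 is a transcription factor that switches on antioxidant and detoxification genes. Each of 18 Agilent arrays with 2 dyes set 1 sample (Cy5) against untreated macrophages (Cy3), whose genotype the labels do not state. The groups were wild type with albumin for 4 h (n = 3), wild type with LPS for 4 h (n = 3), wild type with 200 µM heme-albumin for 4 h and then LPS for 4 h (n = 3), knockout with LPS for 4 h (n = 4), and knockout with 200 µM heme-albumin for 4 h and then LPS for 4 h (n = 5). LPS, the endotoxin of Gram-negative bacteria, was used at 10 ng/ml. The treatment protocol speaks of albumin or heme-albumin before LPS, while the labels of the LPS groups name no albumin. Albumin alone before LPS is therefore not settled for these groups, and the LPS and the heme groups may also differ in albumin and in time in culture. No knockout group went without LPS, and the labels do not state the strain of the mice.

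LPS binds TLR4, which through the adaptor TRIF and the factor IRF3 switches on interferon beta. The secreted interferon acts back on the cells through its receptor IFNAR, and transcription factors set off by it then bind a DNA element, the interferon-stimulated response element (ISRE), in front of many genes. The proteins of these genes sense viral nucleic acid, degrade or hide RNA, stop translation, tag proteins with ISG15 or block the entry and release of virus.

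All values are log2 ratios to the untreated reference, averaged over the probes of a gene, and a difference is that between group means of these ratios with its standard error (SE) in limma. The threshold for a call was an adjusted p of 0.05, with the adjustment made over all 22485 genes. The ratio of 1 gene says nothing of its level against another gene, and the files used here give no signal over background. In these bulk samples, fewer cells that make a transcript and less of it per cell cannot be told apart.

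The DNA in front of the genes is shown first, because the ISRE is the element through which interferon is known to act on such genes. The genes were listed as interferon-stimulated, so ISRE matches among them go with that choice. The part of the matches in the values of the members was not tested. RefSeq promoters of GRCm38.p6, from 250 bases before to 50 bases after the start of a gene, were matched for 28 of the 38 members. The 150 bases before the start are printed for 8 of them, 5′ to 3′ on the strand of the gene, in lower case with matches to the ISRE core (GAAA, 2 bases of any kind, GAAA) on either strand in capitals. Isg15 (chr4:156200819-156200968, minus strand) had 3 matches, each overlapping the next, and Ifit1 (chr19:34640739-34640888, plus strand) had 2. Oas3 (chr5:120777660-120777809, minus strand) and Rsad2 (chr12:26456453-26456602, minus strand) had 1 each. Cmpk2 (chr12:26469065-26469214, plus strand), Oasl1 (chr5:114923090-114923239, plus strand), Oasl2 (chr5:114896784-114896933, plus strand) and Trim25 (chr11:88999253-88999402, plus strand) had 0 in these windows.
Isg15: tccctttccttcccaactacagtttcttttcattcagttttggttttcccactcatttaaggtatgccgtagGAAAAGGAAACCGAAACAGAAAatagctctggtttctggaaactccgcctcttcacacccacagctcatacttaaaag
Ifit1: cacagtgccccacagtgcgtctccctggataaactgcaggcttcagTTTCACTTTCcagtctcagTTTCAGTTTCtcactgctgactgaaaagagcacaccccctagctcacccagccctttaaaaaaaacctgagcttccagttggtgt
Oas3: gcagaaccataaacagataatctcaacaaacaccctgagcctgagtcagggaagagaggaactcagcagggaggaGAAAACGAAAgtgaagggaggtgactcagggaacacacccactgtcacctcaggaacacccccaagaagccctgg
Rsad2: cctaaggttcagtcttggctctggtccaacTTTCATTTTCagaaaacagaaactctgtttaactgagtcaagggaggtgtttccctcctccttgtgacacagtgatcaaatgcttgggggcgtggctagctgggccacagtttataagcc
Cmpk2: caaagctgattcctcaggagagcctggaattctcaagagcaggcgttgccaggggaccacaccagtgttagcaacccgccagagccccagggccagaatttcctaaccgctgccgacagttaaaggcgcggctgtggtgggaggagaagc
Oasl1: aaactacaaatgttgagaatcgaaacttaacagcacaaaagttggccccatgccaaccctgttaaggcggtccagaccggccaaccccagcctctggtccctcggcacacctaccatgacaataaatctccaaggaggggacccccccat
Oasl2: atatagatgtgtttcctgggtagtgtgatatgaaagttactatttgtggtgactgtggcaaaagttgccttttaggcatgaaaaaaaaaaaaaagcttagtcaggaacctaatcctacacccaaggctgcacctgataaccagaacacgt
Trim25: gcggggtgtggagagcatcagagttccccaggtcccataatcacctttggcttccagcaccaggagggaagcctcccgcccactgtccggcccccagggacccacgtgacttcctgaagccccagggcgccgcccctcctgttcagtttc

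Over the whole windows of 300 bases the ISRE core was found in 13 of the 28 member genes (46.4%), against 3.99% of the 27025 genes in the table. The 13 were Bst2, Eif2ak2, Ifi203, Ifi205, Ifih1, Ifit1, Ifit3, Ifitm3, Isg15, Oas1a, Oas3, Rsad2 and Trim21, of which Ifi205 was not measured on the array. The GAS element TTCNNNGAA, which also answers to interferon and reads the same on both strands, was in 7 of 28 (25%) against 9.55% of all genes. The NF-kB site (GGGA, 2 bases of any kind, TTCC) was in 3 of 28 (10.7%) against 1.63%. The antioxidant response element TGACNNNGC, which NRF2 binds, was in 6 of 28 (21.4%) against 14%. These 6 were Herc6, Ifi205, Ifi44, Isg20, Oasl2 and Rsad2, of which Ifi205 and Ifi44 were not measured on the array. The motifs were searched on both strands; a match is a description of letters, not a bound site, and a window without a match says only that the letters are not in it.

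**Figure D1:**
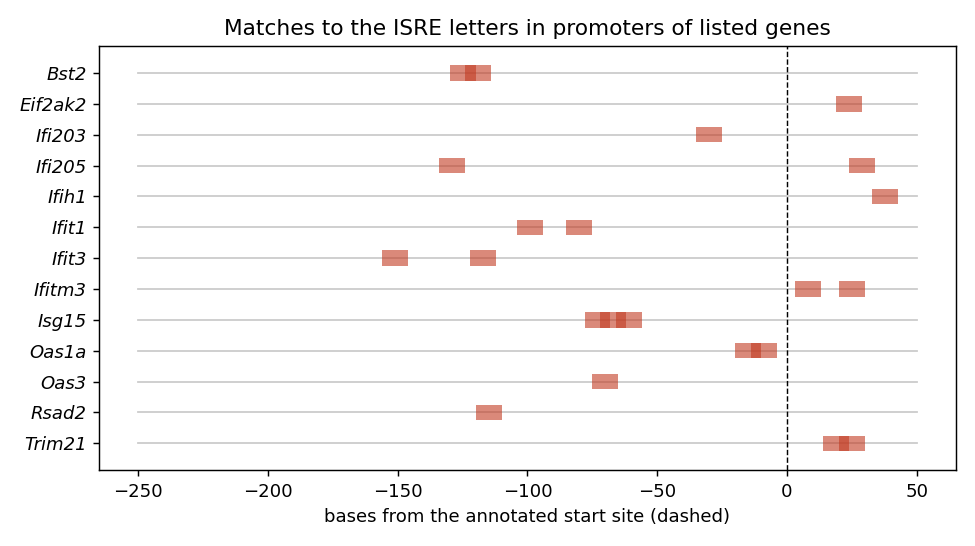
Matches to the ISRE core in the promoter windows of the member genes that have one. The x axis is the distance from the start of the gene in bases, from 250 before to 50 after; each bar spans the bases of a match, and 13 of 28 member genes have at least 1.

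Some members lie side by side in the genome, by the order of genes in the RefSeq table. With no protein-coding gene between them were Rsad2 and Cmpk2, Ifit2 and Ifit3, Oas2 and Oas3, Oasl1 and Oasl2, Parp9 and Dtx3l, and Dtx3l and Parp14. The Ifit, Oas and Ifi20x genes are families of related genes. Probe sequences were not at hand, so any signal shared between related genes could not be told apart.

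Before the results, the arrays that stood apart are given. Nfe2l2, which encodes NRF2, had a listed value of exactly 0 on 9 of 9 knockout arrays and on 2 of 9 wild-type arrays; the position of its probe relative to the deletion is not given. Hmox1, the heme oxygenase that degrades heme, had log2 ratios of 3.85 to 4.47 on the wild-type heme arrays and of 1.73 to 3.52 on the knockout heme arrays, and lay below 0 on all others. In wild type under heme and LPS the 36 members had medians of 1.54, -0.56 and 0.04 on arrays a, b and c. The order a above c above b held in 36 of 36 members. In the knockout under heme and LPS the medians were 2.29, 0.70, 1.49, 2.40 and 1.96 on arrays a to e, and array b was the lowest of the 5 in 36 of 36 members. Under LPS alone the medians were 3.33, 2.54 and 2.48 in wild type and 3.03, 2.55, 2.41 and 3.27 in the knockout, and under albumin they were -0.08, -0.10 and -0.11. The median SD of a member within its group was 1.08 in wild type and 0.80 in the knockout under heme and LPS, against 0.27 and 0.32 for all genes. Under LPS alone it was 0.40 and 0.35, and under albumin 0.04. Limma took 1 spread per gene over all groups. The SE and adjusted p of a heme difference therefore rest in part on the albumin and LPS arrays, which mostly varied less. Those of LPS against albumin rest in part on the heme arrays, which mostly varied more. The share of features with a value of exactly 0 was 17.9% to 48.8% per array, and 44.3% to 48.8% on those lettered a that received LPS. Under heme and LPS it was 46.4%, 17.9% and 41.3% on wild-type arrays a to c. On knockout heme arrays a to e it was 48.8%, 32.1%, 35.8%, 23.9% and 20.9%. The part of this share in the values of the members was not tested. No member, as the mean of its probes, was at 0 on any array.

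**Figure D2:**
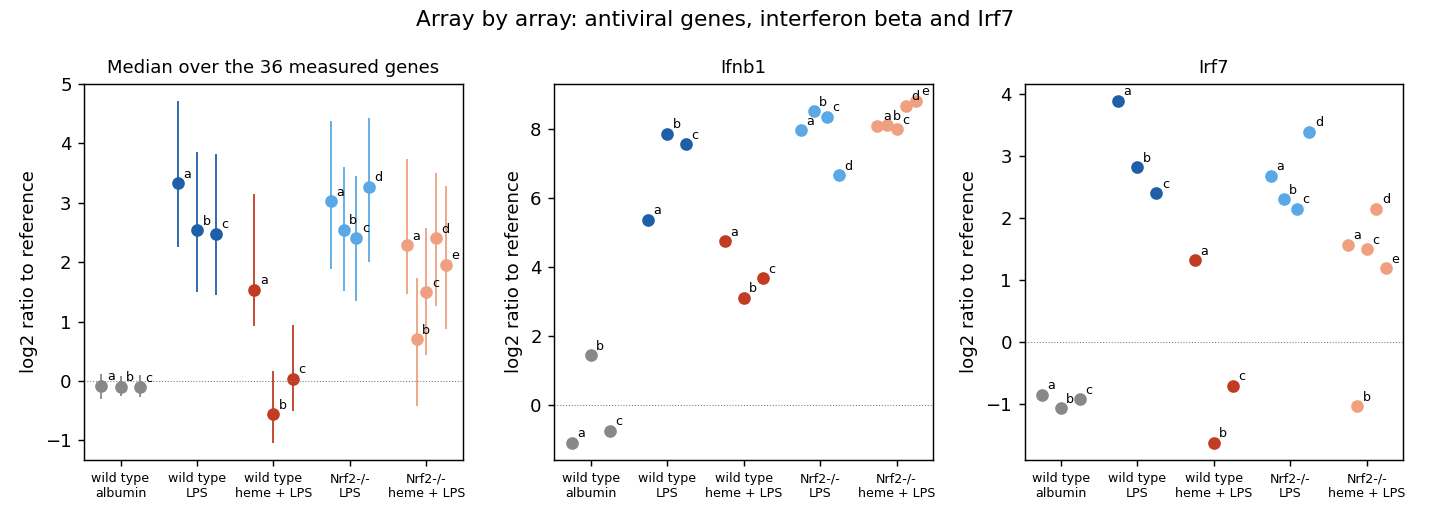
Median and quartiles of the log2 ratio of the 36 members on each of the 18 arrays, with the log2 ratios of Ifnb1 and Irf7 in panels of their own; points are arrays by letter and bars the quartiles. Wild-type array a under heme and LPS (median 1.54) lies above arrays b (-0.56) and c (0.04), and knockout array b (0.70) lies below the other knockout heme arrays.

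Interferon beta itself was set beside these arrays. The log2 ratio of Ifnb1 was 5.38, 7.87 and 7.56 in wild type under LPS and 4.76, 3.12 and 3.68 under heme and LPS. In the knockout it was 7.96, 8.51, 8.36 and 6.66 under LPS and 8.10, 8.11, 8.00, 8.68 and 8.82 under heme and LPS. Ifnb1 fell with heme in wild type by 3.08 ± 0.74 (limma adjusted p = 0.0103), while the knockout difference was 0.47 ± 0.61 (95% confidence interval -0.84 to 1.77; limma adjusted p = 0.824). The difference between these 2 effects was 3.55 ± 0.96 (limma adjusted p = 0.127). On the wild-type heme arrays Ifnb1 ran a above c above b, the same order as the members. Under LPS, wild-type array a had the lowest Ifnb1 and the highest member median of its group. Knockout array b, with the lowest members under heme, had Ifnb1 at 8.11, within the range of its group. Irf7, the factor that amplifies the interferon response, was at 1.32, -1.62 and -0.70 in wild type and at 1.57, -1.03, 1.5, 2.15 and 1.19 in the knockout under heme and LPS, in both genotypes lowest on array b. The part of Ifnb1 or Irf7 in the values of the members was not tested.

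LPS was set against albumin in wild type. LPS raised 33 of the 36 members, where 12.3% of all genes were called higher. None was called lower (16.3% of all genes), and the limma p was under 0.05 without adjustment in 34 of 36 (37.8% of all genes). The median difference was 3.03 for the members and 0.00 for all genes. Every LPS array lay above every albumin array in 36 of 36 members, which held for 19.9% of all genes, while the reverse held for 0 members and 27.3% of all genes. The differences ran from 0.65 for Trim25 to 7.06 ± 0.95 for Ifit1, a 134-fold rise. The IFIT genes (3 of 3 called, median 5.87) and the Mx, membrane and viperin genes (5 of 6, median 5.26) had the highest medians among the role groups. The OAS enzymes and PKR (6 of 6, median 2.22) and the mixed group of other effectors (6 of 7, median 2.21) had the lowest. Trim25 (0.65 ± 0.38, limma adjusted p = 0.234), Bst2 (0.66 ± 0.31, limma adjusted p = 0.13) and Xaf1 (1.14 ± 0.64, limma adjusted p = 0.217) did not pass. The count was 25 to 31 when each array in turn was left out. It was 35 with the arrays compared only, 34 with the replicate block and 36 with array weights, where Trim25, Bst2 and Xaf1 passed too. The rises of Dhx58, Zbp1, Oas1a, Oas2, Oasl2, Uba7 and Ifitm3 did not pass without any 1 of the albumin arrays. Their differences hardly changed in these fits, such as 1.9 to 1.94 for Dhx58 against 1.92 with all arrays. The same genes and Ifi35 did not pass without LPS array a. Without LPS array b Zbp1, Oas1a, Oas2, Uba7 and Ifitm3 did not pass, and without LPS array c Oas1a and Oas2 did not (limma adjusted p = 0.051 to 0.156 over these losses).

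**Figure D3:**
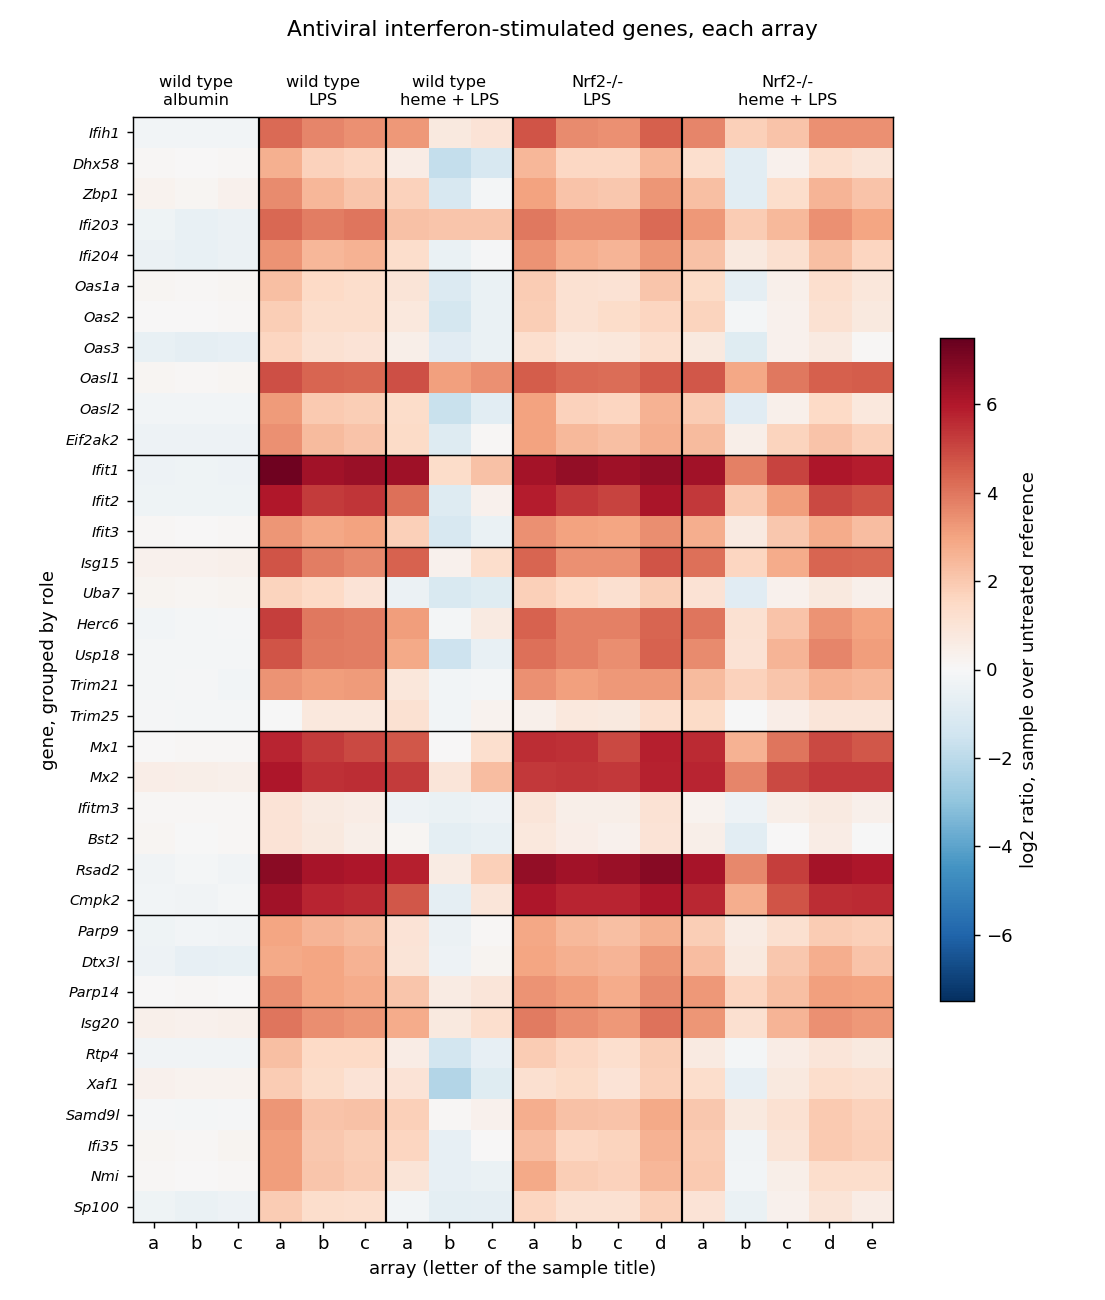
Log2 ratio to the untreated reference of the 36 measured members (rows, by role) on the 18 arrays (columns, by group); colour gives the ratio. The LPS arrays of both genotypes are high for most members, wild-type heme arrays b and c have medians of -0.56 and 0.04, and the knockout heme arrays lie between.

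The next comparison asks within each genotype what heme given ahead of LPS did. In wild type 33 of 36 members fell with heme, where 6.35% of all genes were called lower, and the median difference was -2.33 against 0.00 for all genes. The arrays of the 2 groups did not overlap in 32 of 36 members (11.4% of all genes). By limma 0 members rose (8.34% of all genes), and 0 had heme arrays wholly above the LPS arrays (12.9% of all genes). The differences were largest for Ifit2 (20.7-fold) and Cmpk2 (19.1-fold). In the knockout 5 of 36 members fell with heme, where 2.67% of all genes were called lower: Ifi203, Ifi204, Uba7, Trim21 and Parp9. The median difference there was -0.97, with 36 of 36 members below 0, and the heme arrays lay wholly below the LPS arrays in 13 of 36 (3.04% of all genes). By limma 0 members rose (4.1% of all genes) and 0 had heme arrays wholly above (4.6% of all genes), while 16 of 36 had an unadjusted p under 0.05 (17.3% of all genes). The difference between the genotypes was tested itself: knockout effect minus wild-type effect was above 0 in 36 of 36 members with a median of 1.27, and 1 member, Trim21, passed (0.24% of all genes passed above 0), with 0 members below 0 (0.707% of all genes). At an unadjusted limma p under 0.05 there were 13 of 36 members, against 7.91% of all genes.

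These counts depend on single arrays. The wild-type count of 33 became 17 without LPS array a, 16 without heme array b, 19 without heme array c and 34 without heme array a, and it was 7 when the fit held only the 6 arrays compared. After quantile normalization Ifih1, Zbp1, Ifit1, Mx2, Rsad2, Bst2, Xaf1 and Ifi35 no longer passed (limma adjusted p = 0.0533 to 0.117), and without the LPS-treated arrays lettered a neither Zbp1 nor Bst2 did (limma adjusted p = 0.062 and 0.0539). Of the 36 wild-type calls, 8 held under every alternative tried: Dtx3l, Ifi203, Ifitm3, Parp9, Sp100, Trim21 and Uba7 as lower, and Trim25 as not called. Without heme array a the median difference in wild type was -2.91, without LPS array a -2.05. The knockout count of 5 ran from 1 to 6 when single arrays were left out (1 without LPS array a or d, 2 without LPS array b, heme array b or heme array c, 3 without heme array e), was 1, Ifi203, after quantile normalization and was 15 without array a of both heme groups. In the knockout, arrays of the same letter deviated together (correlations of 0.22 to 0.59), but those lettered b and c did so more across letters. LPS array b correlated at 0.23 with heme array b and at 0.324 with heme array c. LPS array c correlated at 0.216 with heme array c and at 0.363 with heme array b. The pairing of b and c is therefore not settled. With the letters as a replicate block 11 members were called lower. The count was 0 when the block was fitted on the 9 arrays compared only, with 23 at an unadjusted limma p under 0.05 (18.2% of all genes). The count of the interaction was 8 without wild-type heme array a and 2 without knockout heme array b.

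**Figure D4:**
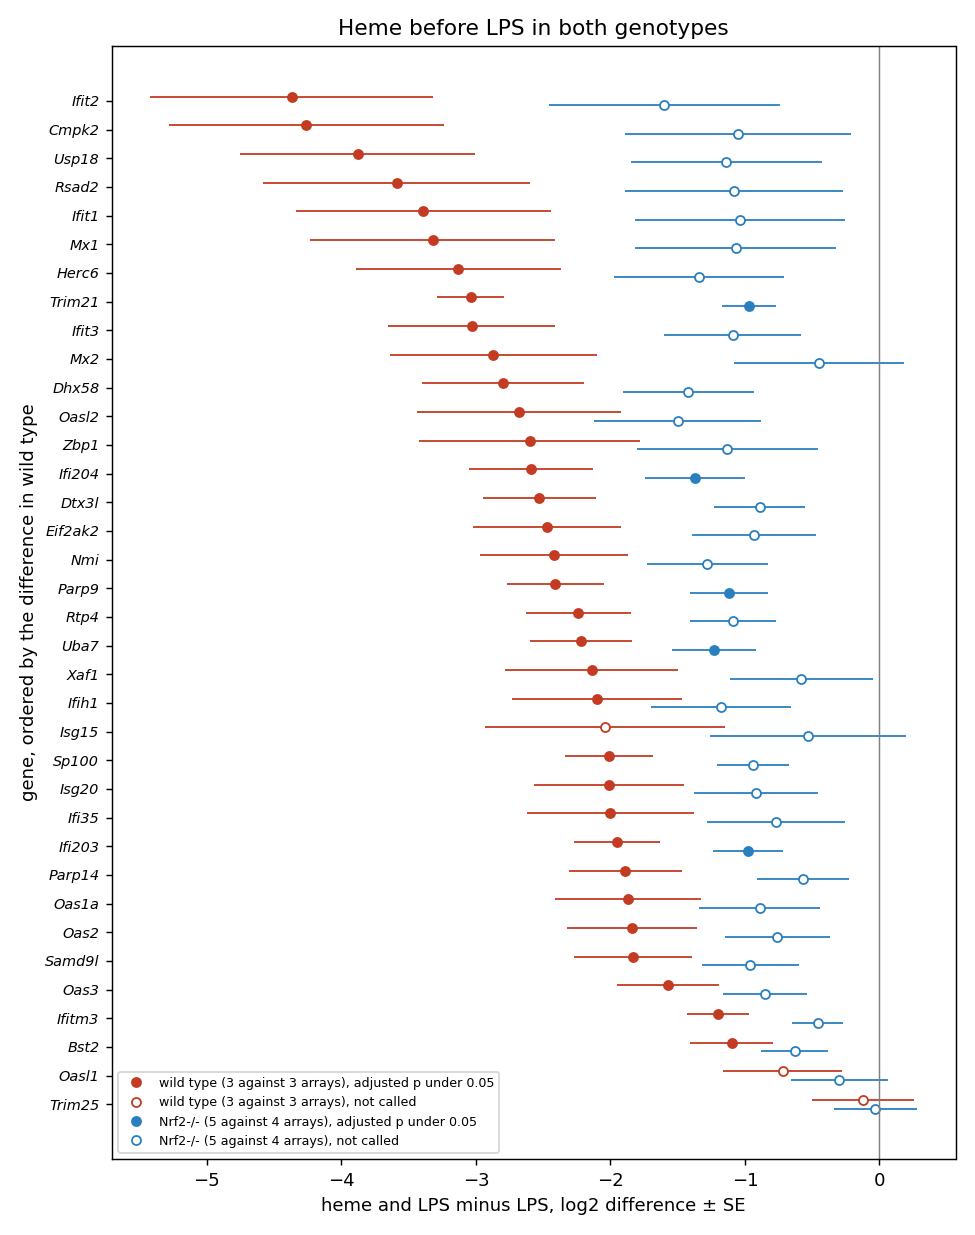
Difference of heme and LPS against LPS alone (log2, with SE) for each member in wild type and in the knockout; filled points passed the adjusted p of 0.05. All 36 differences are below 0 in both genotypes, with medians of -2.33 and -0.97, and 33 and 5 members passed.

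The sensors of nucleic acid come first among the roles. Of the 5 measured, 5 rose with LPS, 5 fell with heme in wild type and 2 fell in the knockout. Dhx58 encodes LGP2, which tunes the RIG-I-like receptors. In wild type its log2 ratio was 0.09, 0.00 and 0.08 under albumin on arrays a to c, 2.69, 1.7 and 1.55 under LPS, and 0.58, -1.8 and -1.23 under heme and LPS. In the knockout it was 2.51, 1.56, 1.58 and 2.5 under LPS on arrays a to d and 1.24, -0.77, 0.35, 1.25 and 0.99 under heme and LPS on arrays a to e. Heme arrays b and c of wild type lay below every albumin array, and in neither genotype did the heme arrays reach the LPS arrays. Dhx58 fell with heme in wild type by 2.8 ± 0.6 (limma adjusted p = 0.00516), while the knockout difference was -1.42 ± 0.49 (95% interval -2.48 to -0.36; limma adjusted p = 0.117). Without heme array a Dhx58 fell by 3.49 ± 0.55.

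Zbp1, a sensor of Z-form nucleic acid that can start necroptosis, stood at 0.27, 0.13 and 0.3 under albumin, 3.56, 2.51 and 2.08 under LPS and 1.7, -1.21 and -0.16 under heme and LPS in wild type. The knockout values were 3.02, 2.14, 2.04 and 3.32 under LPS and 2.28, -0.77, 1.31, 2.56 and 2.12 under heme and LPS. The low arrays under heme were b and c in wild type and b in the knockout, where the groups overlapped. Zbp1 fell in wild type by 2.6 ± 0.82 (limma adjusted p = 0.0452), while the knockout difference was -1.13 ± 0.67 (limma adjusted p = 0.461). The wild-type call was lost without any 1 of the LPS arrays or without heme array b or c (limma adjusted p = 0.0576 to 0.192), and the difference was -1.94 ± 0.86 without heme array b and -3.4 ± 0.81 without heme array a. Zbp1 had 2 probes, and 1 of 2 was called in each of these comparisons: with LPS they gave 3.05 ± 0.91 and 1.91 ± 0.73 (limma adjusted p = 0.0198 and 0.0662), and with heme -2.96 ± 0.91 and -2.25 ± 0.73 (limma adjusted p = 0.0399 and 0.0536).

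Ifi203 and Ifi204 belong to the HIN-200 family, whose best-known members bind DNA. In wild type Ifi203 was at -0.35, -0.55 and -0.42 under albumin, 4.33, 3.84 and 4.01 under LPS and 2.17, 2.06 and 2.09 under heme and LPS. In the knockout it was at 3.97, 3.46, 3.46 and 4.23 under LPS and at 3.27, 1.92, 2.43, 3.43 and 2.96 under heme and LPS. The wild-type heme arrays lay close together, with an SD of 0.06, and above all albumin arrays. This closeness is that of a mean over 4 probes: on 3 of them array a was higher than array b, and the fourth was listed at 0.00, 1.44 and 0.36 on arrays a to c. Ifi203 fell with heme by 1.95 ± 0.32 in wild type (limma adjusted p = 0.000715) and by 0.98 ± 0.26 in the knockout (limma adjusted p = 0.0395). The probes gave differences of -2.44 to -1.31 in wild type, 4 of 4 called, and of -1.12 to -0.75 in the knockout, 1 of 4 called; with LPS they gave 2.85 to 5.48, 4 of 4 called. Ifi204 fell by 2.59 ± 0.46 in wild type and 1.37 ± 0.37 in the knockout (limma adjusted p = 0.00122 and 0.0415). The knockout call of Ifi203 was lost without LPS array a or d or heme array b, c or e (limma adjusted p = 0.0562 to 0.134) and with a trended, robust prior in limma (adjusted p = 0.0594), and that of Ifi204 without LPS array a, b or d or heme array b, c or e (limma adjusted p = 0.0611 to 0.130). Ifih1, which encodes the sensor MDA5 of long double-stranded RNA, fell in wild type by 2.1 ± 0.63 (limma adjusted p = 0.0371) and stood above albumin by 1.9 ± 0.63 (limma adjusted p = 0.0372). The fall of Ifih1 did not pass without any 1 of the LPS arrays or without heme array b or c (limma adjusted p = 0.0596 to 0.158), and the difference was -2.9 ± 0.55 without heme array a. The difference of Ifih1 from albumin was 1.11 ± 0.55 without heme array a (limma adjusted p = 0.169) and did not pass without any 1 of the albumin arrays either (limma adjusted p = 0.0791 to 0.0833).

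The OAS enzymes make oligoadenylates that switch on RNase L, and PKR (Eif2ak2) stops translation on double-stranded RNA. Of these 6 genes, 6 rose with LPS and 5 fell with heme in wild type, while 0 of 6 were called in the knockout. Oasl2, an OAS-like protein, had wild-type log2 ratios of -0.23, -0.22 and -0.18 under albumin, 3.18, 1.99 and 1.83 under LPS and 1.4, -1.66 and -0.79 under heme and LPS. Its knockout values were 3.03, 1.71, 1.63 and 2.59 under LPS and 1.93, -0.87, 0.36, 1.49 and 0.77 under heme and LPS. Wild-type heme array b was the lowest of all 18 arrays, and the knockout groups overlapped. Oasl2 fell by 2.68 ± 0.76 in wild type (limma adjusted p = 0.027), and the knockout difference of -1.5 ± 0.62 did not pass (limma adjusted p = 0.213). The wild-type fall of Oasl2 lost its call without LPS array a or b or without heme array b or c (limma adjusted p = 0.0524 to 0.127); the difference was -2.03 ± 0.79 without heme array b and -3.56 ± 0.7 without heme array a.

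Eif2ak2 was at -0.41, -0.4 and -0.36 under albumin, 3.45, 2.39 and 2.13 under LPS and 1.44, -0.94 and 0.06 under heme and LPS in wild type. In knockout cells the values were 3.02, 2.43, 2.24 and 2.7 under LPS and 2.39, 0.42, 1.66, 2.12 and 1.77 under heme and LPS. Array b was the lowest heme array in both genotypes, and the knockout groups overlapped. With heme Eif2ak2 fell in wild type by 2.47 ± 0.55 (limma adjusted p = 0.00672), against -0.93 ± 0.46 in the knockout (limma adjusted p = 0.326), and fell by 3.1 ± 0.51 without heme array a.

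Oasl1, an OAS-like protein that holds back the translation of IRF7, had the smallest heme difference of the 6. Its wild-type values were 0.14, 0.1 and 0.14 under albumin, 4.82, 4.34 and 4.32 under LPS and 4.81, 3.09 and 3.41 under heme and LPS. The knockout values were 4.57, 4.27, 4.2 and 4.59 under LPS and 4.64, 2.89, 3.95, 4.51 and 4.55 under heme and LPS. Heme array a lay within the LPS range in wild type, and every heme array of both genotypes lay above albumin. The heme difference was -0.72 ± 0.44 in wild type (95% interval -1.67 to 0.23; limma adjusted p = 0.391). Against albumin, Oasl1 was higher under heme and LPS by 3.64 ± 0.44 (limma adjusted p = 3.47e-05). Its neighbour Oasl2 differed from albumin by -0.14 ± 0.76 in the same arrays (limma adjusted p = 0.97). Oas1a, Oas2 and Oas3 fell with heme in wild type by 1.87 ± 0.54, 1.84 ± 0.48 and 1.57 ± 0.38 (limma adjusted p = 0.0307, 0.0163 and 0.0109). None of these 3 falls passed without LPS array a or without heme array b, Oas1a and Oas2 did not pass without heme array c, and Oas1a did not pass without LPS array b (limma adjusted p = 0.0531 to 0.135). With LPS 1 of the 2 probes of Oas1a was called.

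The IFIT proteins bind viral RNA and block its translation, and all 3 rose with LPS and fell with heme in wild type, while 0 of 3 were called in the knockout. Ifit2 had wild-type log2 ratios of -0.34, -0.35 and -0.32 under albumin, 6.0, 5.23 and 5.38 under LPS and 4.15, -0.99 and 0.34 under heme and LPS. Knockout cells had 5.9, 5.28, 5.09 and 6.1 under LPS and 5.28, 1.94, 3.12, 4.93 and 4.69 under heme and LPS. The wild-type heme arrays ran from below albumin on array b to 4.15 on array a. Ifit2 fell by 4.37 ± 1.05 in wild type (limma adjusted p = 0.0103), and by 5.86 ± 0.80 without array a. Without heme array b the difference was -3.29 ± 1.02 and did not pass (limma adjusted p = 0.0511). The knockout difference was -1.6 ± 0.86 (95% interval -3.45 to 0.25; limma adjusted p = 0.39).

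Ifit1 was at -0.4, -0.33 and -0.39 under albumin, 7.28, 6.3 and 6.49 under LPS and 6.35, 1.37 and 2.17 under heme and LPS in wild type. Its knockout arrays read 6.26, 6.58, 6.37 and 6.6 under LPS and 6.27, 3.78, 5.08, 6.07 and 5.86 under heme and LPS. Array a of wild type under heme overlapped the LPS arrays, the other 2 lay far below, and all 3 stayed above albumin. Ifit1 fell by 3.39 ± 0.95 in wild type (limma adjusted p = 0.0253) and stayed above albumin by 3.67 ± 0.95 (limma adjusted p = 0.00969). It fell by 4.92 ± 0.57 without heme array a and differed by -2.43 ± 0.93 without heme array b; the call was lost without any 1 of the LPS arrays or without heme array b or c (limma adjusted p = 0.0515 to 0.122). Its difference from albumin was 2.14 ± 0.57 without heme array a and 4.64 ± 0.93 without heme array b, and passed in both (limma adjusted p = 0.0144 and 0.00249).

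Ifit3 was at 0.06, 0.02 and 0.08 under albumin, 3.3, 2.89 and 3.0 under LPS and 1.79, -1.21 and -0.5 under heme and LPS in wild type. Under LPS the knockout arrays had 3.41, 3.0, 2.93 and 3.46, and under heme and LPS 2.74, 0.68, 2.0, 2.78 and 2.33. Wild-type heme arrays b and c lay below albumin and no knockout array did. It fell with heme by 3.03 ± 0.62 in wild type (limma adjusted p = 0.00372), against -1.09 ± 0.51 in the knockout (limma adjusted p = 0.292), and stood 2.08 ± 0.56 higher in the knockout under heme and LPS (limma adjusted p = 0.0449). The wild-type heme difference was -3.92 ± 0.48 without heme array a and -2.42 ± 0.62 without heme array b, and passed in both. The call between the genotypes was lost without wild-type heme array b or c or without knockout heme array a, c, d or e (limma adjusted p = 0.0730 to 0.219), and with the replicate block (limma adjusted p = 0.0656); the difference was 1.46 ± 0.56 without wild-type heme array b and 2.96 ± 0.44 without wild-type heme array a.

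ISG15 is a ubiquitin-like tag, UBA7 activates it, HERC6 is its ligase in the mouse, and USP18 removes it and restrains signalling at the interferon receptor. TRIM21 and TRIM25 are ubiquitin ligases, TRIM21 a receptor for antibodies in the cytosol. Of these 6 genes, 5 rose with LPS, 4 fell with heme in wild type and 2 fell in the knockout. Usp18 was at -0.15, -0.12 and -0.12 under albumin, 4.72, 3.88 and 3.82 under LPS and 2.85, -1.54 and -0.53 under heme and LPS in wild type. The knockout had 4.12, 3.8, 3.46 and 4.41 under LPS and 3.55, 1.1, 2.57, 3.65 and 3.16 under heme and LPS. On wild-type heme arrays b and c it lay below albumin, while every knockout heme array lay above. Usp18 fell by 3.88 ± 0.87 in wild type (14.7-fold; limma adjusted p = 0.00663). The difference was -5.18 ± 0.61 without heme array a and -2.98 ± 0.84 without heme array b, and the call held in both. The knockout difference was -1.14 ± 0.71 (limma adjusted p = 0.498). The 2 effects differed by 2.74 ± 1.12 (limma adjusted p = 0.493), and by 4.03 ± 0.76 without wild-type heme array a (limma adjusted p = 0.0185).

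Herc6 read -0.18, -0.16 and -0.11 under albumin, 5.18, 3.98 and 3.86 under LPS and 3.11, -0.16 and 0.68 under heme and LPS in wild type. Knockout arrays read 4.43, 3.75, 3.78 and 4.34 under LPS and 4.01, 1.12, 2.13, 3.39 and 3.02 under heme and LPS. The heme arrays were spread widely in both genotypes, with array b lowest. Herc6 fell by 3.13 ± 0.76 in wild type (limma adjusted p = 0.0114); the knockout difference was -1.34 ± 0.63 (limma adjusted p = 0.291). The wild-type fall of Herc6 did not pass without LPS array a or without heme array b (limma adjusted p = 0.0572 and 0.0585); the difference was -2.44 ± 0.78 without heme array b and -4.08 ± 0.67 without heme array a. Its 2 probes differed with LPS, 3.88 ± 0.9 and 5.1 ± 0.66 with both called, and with heme gave -3.14 ± 0.9 and -3.11 ± 0.66.

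Trim21 was at -0.12, -0.08 and -0.19 under albumin, 3.35, 3.13 and 3.21 under LPS and 0.86, -0.18 and -0.12 under heme and LPS in wild type. The knockout values were 3.4, 3.06, 3.23 and 3.24 under LPS and 2.37, 1.72, 2.1, 2.62 and 2.49 under heme and LPS. The heme arrays lay below the LPS arrays in both genotypes, and every knockout heme array lay above every wild-type heme array. Trim21 fell with heme by 3.04 ± 0.25 in wild type (8.25-fold) and by 0.97 ± 0.2 in the knockout (1.96-fold; limma adjusted p = 2.28e-06 and 0.0101). The 2 effects differed by 2.07 ± 0.32 (limma adjusted p = 0.00514). This call held under every alternative tried, while the knockout fall did not pass after quantile normalization (limma adjusted p = 0.0832) or with the replicate block on the 9 arrays compared only (limma adjusted p = 0.068). The SD of the wild-type heme arrays was 0.58, against a median of 1.08 over the members.

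Trim25, which ubiquitinates RIG-I, had the smallest heme difference of all 36. It read -0.07, -0.16 and -0.13 under albumin, -0.04, 0.81 and 0.81 under LPS and 1.15, -0.2 and 0.29 under heme and LPS in wild type. Knockout values were 0.36, 0.8, 0.71 and 1.24 under LPS and 1.45, -0.01, 0.49, 0.92 and 0.88 under heme and LPS. LPS array a of wild type was lower than the other 2, heme array a was higher, and the groups overlapped in both genotypes. The heme difference was -0.12 ± 0.38 in wild type (95% interval -0.93 to 0.69; limma adjusted p = 0.981). Isg15 differed by -2.04 ± 0.89 with heme in wild type (limma adjusted p = 0.178), and by -3.24 ± 0.73 without heme array a, when it passed (limma adjusted p = 0.00842). Its heme arrays read 4.41, 0.32 and 1.3, so array a lay within the LPS values of 4.72, 3.83 and 3.59. Uba7 fell by 2.22 ± 0.38 in wild type and by 1.23 ± 0.31 in the knockout (limma adjusted p = 0.000912 and 0.0268), and its wild-type heme arrays, -0.42, -1.16 and -0.9, all lay below albumin (0.2, 0.14 and 0.19). The knockout call of Uba7 was lost without LPS array a, b or d (limma adjusted p = 0.0515 to 0.0866) and after quantile normalization (limma adjusted p = 0.0548).

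Mx1 and Mx2 are GTPases that trap viral particles, IFITM3 and BST2 act at membranes on entry and release of virus, viperin (Rsad2) makes a chain-terminating nucleotide, and Cmpk2 encodes a nucleotide kinase. Of these 6 genes, 5 rose with LPS, 6 fell with heme in wild type, and 0 were called in the knockout. Cmpk2 was at -0.21, -0.24 and -0.14 under albumin, 6.32, 5.74 and 5.59 under LPS and 4.67, -0.69 and 0.9 under heme and LPS in wild type. In the knockout it was at 6.09, 5.7, 5.7 and 6.09 under LPS and at 5.66, 2.73, 4.69, 5.56 and 5.61 under heme and LPS. The heme arrays of wild type ran from below albumin on array b to 4.67 on array a. Cmpk2 fell by 4.26 ± 1.02 (limma adjusted p = 0.0101) in wild type. The difference was -5.78 ± 0.71 without array a and -3.1 ± 0.94 without array b, and the call held in both. The knockout difference was -1.05 ± 0.84 (limma adjusted p = 0.645), and the difference of the 2 effects, 3.21 ± 1.32, was the largest of the 36 (limma adjusted p = 0.493; 0.0176 without wild-type heme array a).

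Rsad2, next to Cmpk2 in the genome, read -0.26, -0.15 and -0.27 under albumin, 6.76, 6.17 and 6.06 under LPS and 5.81, 0.59 and 1.81 under heme and LPS in wild type. Its knockout arrays were at 6.61, 6.27, 6.47 and 6.83 under LPS and at 6.21, 3.59, 5.21, 6.24 and 6.09 under heme and LPS. As for Cmpk2, array a was the highest and array b the lowest of the wild-type heme arrays, and array b was the lowest of the knockout heme arrays. It fell by 3.59 ± 0.99 (limma adjusted p = 0.0225) and stood 2.96 ± 0.99 above albumin (limma adjusted p = 0.0373). The heme difference was -5.13 ± 0.64 without heme array a and -2.52 ± 0.93 without heme array b, and the call was lost without LPS array a or b or without heme array b or c (limma adjusted p = 0.0555 to 0.108). The difference from albumin was 1.43 ± 0.64 without heme array a (limma adjusted p = 0.128), and it did not pass without any 1 of the albumin arrays (limma adjusted p = 0.078 to 0.0846).

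Bst2, which encodes tetherin, was at 0.13, -0.01 and 0.08 under albumin, 1.03, 0.72 and 0.43 under LPS and 0.12, -0.72 and -0.53 under heme and LPS in wild type. Knockout values were 0.81, 0.47, 0.35 and 1.03 under LPS and 0.42, -0.79, 0.02, 0.55 and -0.01 under heme and LPS. The wild-type LPS and heme arrays did not overlap. Bst2 fell with heme by 1.1 ± 0.31 (limma adjusted p = 0.0247), although its rise with LPS had not passed in the main fit. With array weights the rises of all 36 members passed, that of Bst2 among them. The fall of Bst2 did not pass without LPS array a or b or without heme array b or c (limma adjusted p = 0.0653 to 0.103). Ifitm3 fell by 1.2 ± 0.23 (limma adjusted p = 0.00244), with heme arrays of -0.38, -0.48 and -0.41, all below albumin; with LPS 8 of its 10 probes were called. Mx1 and Mx2 fell by 3.32 ± 0.91 and 2.87 ± 0.77 (limma adjusted p = 0.0223 and 0.0193), with Mx1 at 4.68, 0.03 and 1.25 and Mx2 at 5.24, 0.93 and 2.34 on the heme arrays. Neither fall passed without LPS array a or without heme array b or c, and that of Mx1 did not pass without LPS array b (limma adjusted p = 0.0575 to 0.107 for Mx1 and 0.0697 to 0.0849 for Mx2). Without heme array b the differences of Mx1 and Mx2 were -2.34 ± 0.87 and -1.92 ± 0.67, and without heme array a -4.67 ± 0.65 and -4.07 ± 0.49.

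**Figure D5:**
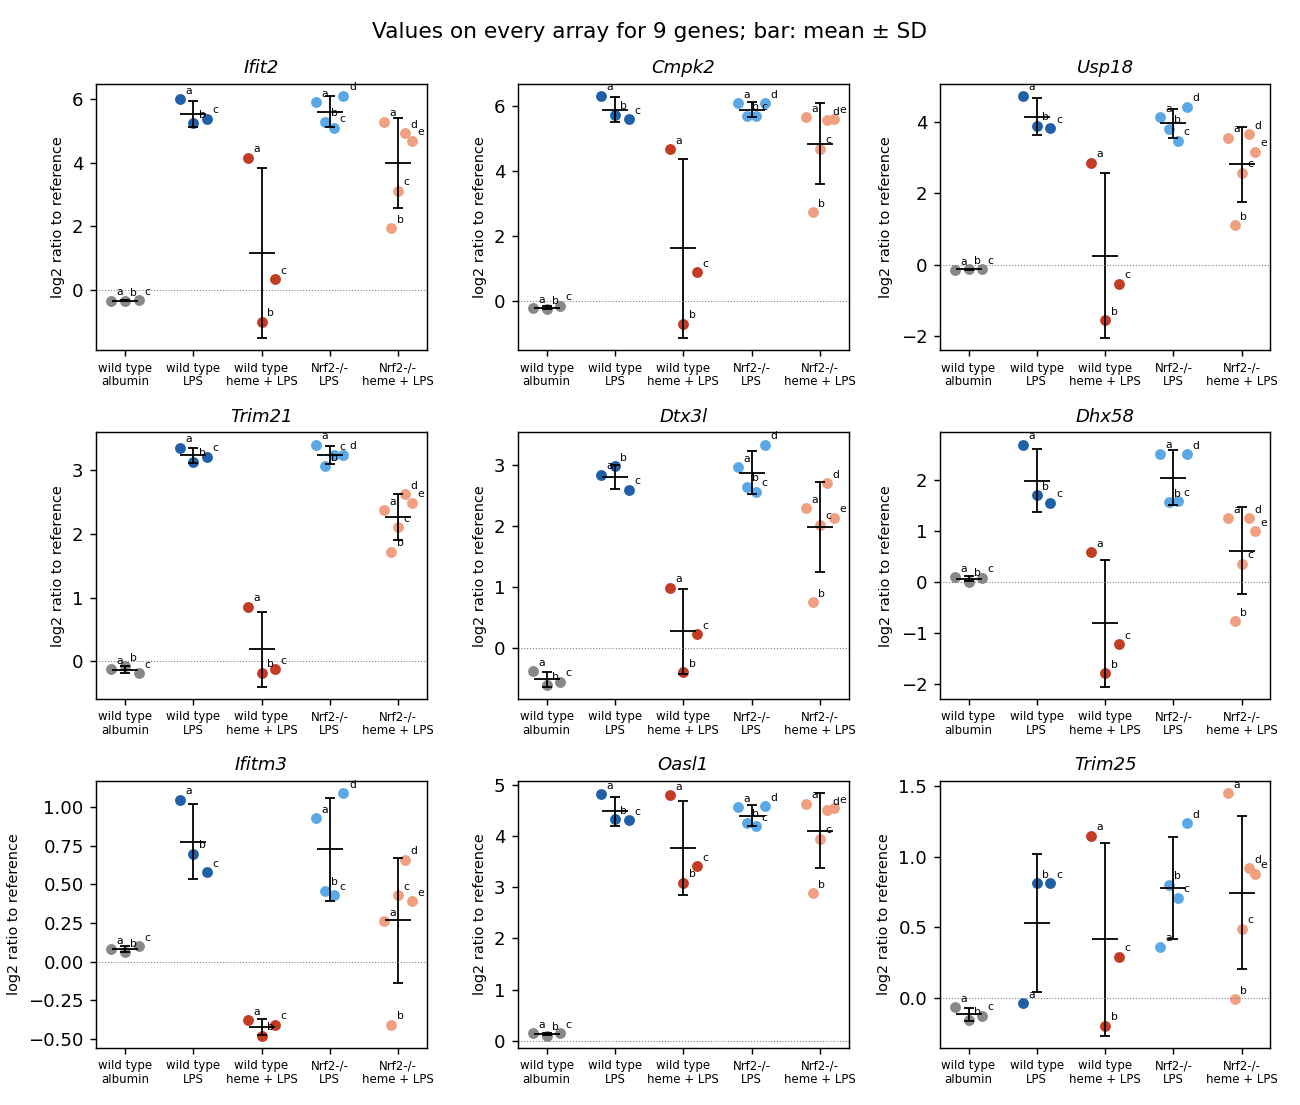
Log2 ratio on each array for Ifit2, Cmpk2, Usp18, Trim21, Dtx3l, Dhx58, Ifitm3, Oasl1 and Trim25 in the 5 groups, with bars at the mean and error bars of 1 SD (n = 3, 3, 3, 4 and 5). The wild-type heme arrays of Ifit2, Cmpk2 and Usp18 spread widely, those of Ifitm3 lie close together, and Oasl1 stays far above albumin.

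PARP9 and DTX3L form a complex that ADP-ribosylates and ubiquitinates proteins, and PARP14 is another ADP-ribosyltransferase. All 3 genes rose with LPS and fell with heme in wild type, and Parp9 fell in the knockout. Dtx3l was at -0.38, -0.61 and -0.55 under albumin, 2.84, 2.98 and 2.59 under LPS and 0.99, -0.4 and 0.23 under heme and LPS in wild type. In the knockout its values were 2.96, 2.64, 2.56 and 3.33 under LPS and 2.29, 0.75, 2.02, 2.7 and 2.13 under heme and LPS. Array b was the lowest heme array in both genotypes, and the knockout groups overlapped. Dtx3l fell by 2.53 ± 0.42 in wild type (limma adjusted p = 0.000712), while the knockout difference was -0.89 ± 0.34 (limma adjusted p = 0.164) and the 2 effects differed by 1.64 ± 0.54 (limma adjusted p = 0.272). Its 2 probes gave 3.9 ± 0.44 and 2.74 ± 0.42 with LPS and -2.59 ± 0.44 and -2.47 ± 0.42 with heme, all called.

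Parp9 read -0.32, -0.18 and -0.24 under albumin, 2.95, 2.57 and 2.38 under LPS and 1.0, -0.42 and 0.07 under heme and LPS in wild type. The knockout arrays had 2.91, 2.46, 2.28 and 2.67 under LPS and 1.82, 0.59, 1.21, 1.9 and 1.77 under heme and LPS. Heme and LPS arrays did not overlap in either genotype. Parp9 fell by 2.41 ± 0.36 in wild type and by 1.12 ± 0.29 in the knockout (limma adjusted p = 0.000319 and 0.0345). The knockout call was lost without LPS array a, b or d or without heme array b or c (limma adjusted p = 0.0607 to 0.116) and after quantile normalization (limma adjusted p = 0.0621).

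Parp14 was at 0.00, 0.07 and 0.00 under albumin, 3.49, 2.97 and 2.78 under LPS and 2.07, 0.59 and 0.92 under heme and LPS in wild type. Its values were 3.37, 3.13, 2.81 and 3.56 in the knockout under LPS and 3.26, 1.64, 2.26, 3.09 and 2.99 under heme and LPS. All wild-type heme arrays stayed above albumin, and the knockout groups overlapped. With heme Parp14 fell by 1.89 ± 0.42 in wild type (limma adjusted p = 0.00607), and the knockout difference was -0.57 ± 0.34 (limma adjusted p = 0.471).

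The other 7 effectors and regulators all fell with heme in wild type, by 1.83 to 2.42, and 0 of 7 were called in the knockout. Nmi, a partner of IFI35, was at 0.09, 0.03 and 0.08 under albumin, 3.16, 2.09 and 1.89 under LPS and 0.98, -0.63 and -0.48 under heme and LPS in wild type. The knockout read 2.87, 1.85, 1.73 and 2.5 under LPS and 1.94, -0.23, 0.45, 1.29 and 1.34 under heme and LPS. Wild-type heme arrays b and c and knockout heme array b lay below albumin. Nmi fell by 2.42 ± 0.55 in wild type (limma adjusted p = 0.00692), and the knockout difference was -1.28 ± 0.45 (limma adjusted p = 0.12).

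Rtp4, a transporter protein of receptors that also restrains RNA viruses, had wild-type values of -0.29, -0.26 and -0.27 under albumin, 2.27, 1.5 and 1.49 under LPS and 0.57, -1.4 and -0.64 under heme and LPS. Its knockout values were 1.88, 1.53, 1.28 and 1.82 under LPS and 0.7, -0.14, 0.55, 0.88 and 0.72 under heme and LPS. The groups did not overlap in either genotype. It fell by 2.24 ± 0.39 in wild type (limma adjusted p = 0.00116), and the knockout difference of -1.09 ± 0.32 did not pass (95% interval -1.78 to -0.39; limma adjusted p = 0.0608). Samd9l, an antiviral protein that also restrains cell growth, read -0.08, -0.15 and -0.11 under albumin, 3.33, 2.16 and 2.2 under LPS and 1.79, 0.1 and 0.3 under heme and LPS in wild type. For the knockout the values were 2.73, 2.22, 2.14 and 2.85 under LPS and 2.01, 0.75, 1.17, 1.94 and 1.74 under heme and LPS. Every heme array lay below the LPS arrays in both genotypes and above albumin. Samd9l fell by 1.83 ± 0.44 in wild type (limma adjusted p = 0.011), against -0.96 ± 0.36 in the knockout (limma adjusted p = 0.159); the wild-type call did not hold without LPS array a or heme array b or c (limma adjusted p = 0.0514 to 0.0597).

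Sp100, a protein of PML nuclear bodies, Isg20, an exonuclease, and Ifi35 fell in wild type by 2.01 ± 0.33, 2.01 ± 0.56 and 2.0 ± 0.62 (limma adjusted p = 0.000704, 0.0235 and 0.0442). Isg20 did not pass without LPS array a or b or heme array b or c, and Ifi35 did not pass without any 1 of the LPS arrays or heme array b or c (limma adjusted p = 0.0547 to 0.186). Without heme array a their differences were -2.62 ± 0.53 and -2.65 ± 0.6. The 2 probes of Isg20 gave heme differences of -2.53 and -1.5 and LPS differences of 3.98 and 2.52, all called. Xaf1, an antagonist of the apoptosis inhibitor XIAP, fell by 2.14 ± 0.64 (limma adjusted p = 0.0358). Its call was lost without any 1 of the LPS arrays or without heme array b or c (limma adjusted p = 0.0551 to 0.163); the difference was -1.39 ± 0.58 without heme array b and -3 ± 0.52 without heme array a. Its 2 probes disagreed: with LPS they differed from albumin by 2.81 ± 0.69 and -0.53 ± 0.61, and with heme by -2.68 ± 0.69 and -1.60 ± 0.61, of which the last did not pass. Which of the probes reads which transcript is not given in the files used here.

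Knockout against wild type was compared under LPS and under heme and LPS. Under LPS alone 0 of 36 members were called by limma in either direction, where 0.0% of all genes were called higher and 0.00445% lower, and 0 of 36 had an unadjusted p under 0.05 (2.48% of all genes). In 0 members did the arrays separate (1.55% of all genes higher and 1.47% lower in the knockout). The median difference was -0.06, and the differences ran from -0.31 for Ifi35 to 0.26 for Ifih1. The 95% interval was wide for some, such as Ifit2 with -2.04 to 2.16. It was narrower for others, such as Trim21 with -0.5 to 0.5. With the replicate block, which the letters bear out in this comparison, 0 were called and 1 had an unadjusted p under 0.05 (4.09% of all genes); with the block on the 7 arrays compared, 0 were called and 10 had one (6.48% of all genes). The knockout was lower at all 3 shared letters in 17 of 36 members and higher at all 3 in 0. By letter it was lower in 30, 25 and 26 of 36 members at a, b and c, with median differences of -0.22, -0.09 and -0.08. The share of all genes was not computed for these counts.

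Under heme and LPS the knockout stood above wild type in 36 of 36 members, with a median difference of 1.31 against 0.00 for all genes. Of these, 5 passed, where 2.13% of all genes were called higher: Trim21 (2.08 ± 0.22), Ifit3 (2.08 ± 0.56), Dtx3l (1.7 ± 0.37), Parp14 (1.46 ± 0.37) and Parp9 (1.24 ± 0.32). Trim21 was the 1 member whose arrays did not overlap (3.23% of all genes). By limma 0 were lower (3.16% of all genes), and 0 separated below (4.56% of all genes). At an unadjusted limma p under 0.05 there were 24 of 36 members, against 16.0% of all genes. The largest differences, 3.22 ± 0.91 for Cmpk2 and 2.83 ± 0.94 for Ifit2, did not pass (limma adjusted p = 0.0573 and 0.11). The call of Dtx3l was lost without wild-type heme array b or c (limma adjusted p = 0.0864 and 0.0564). Parp14 and Parp9 lost theirs in these fits and without knockout heme array a, d or e (limma adjusted p = 0.064 to 0.185). The count was 21 without wild-type heme array a, 19 without knockout heme array b, 1 without wild-type heme array b or c, and 2 without knockout heme array a, d or e. It was 6 with the replicate block. With the block on the 8 arrays compared only it was 0, but that fit called 0 of all 22485 genes in either direction. In that fit 19 members had an unadjusted limma p under 0.05 (12.4% of all genes). At all 3 shared letters the knockout was higher in 30 of 36 members and lower in 0, a count for which the share of all genes was not computed.

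Heme and LPS against albumin shows how far the members stood from cells without LPS. In wild type 6 of 36 members (16.7%) were called higher than under albumin, near the 12.9% of all genes called higher: Ifih1, Ifi203, Oasl1, Ifit1, Mx2 and Rsad2. None was lower by limma (14.4% of all genes were called lower); 10 of 36 had an unadjusted p under 0.05 in either direction, a share below the 36.9% of all genes. All wild-type heme arrays lay above all albumin arrays in 9 members (19.9% of all genes) and below in 2, Uba7 and Ifitm3 (23.8% of all genes). The median difference was 0.50, and it was 0.00 without heme array a. In 13 of 36 members the mean under heme and LPS was at or below that under albumin. In the knockout this held for 1 of 36 against the same wild-type albumin arrays, and in 23 of 36 members every knockout heme array lay above every albumin array (14.2% of all genes). The count of 6 became 3, with Ifih1, Mx2 and Rsad2 lost, without heme array a or without any 1 of the albumin arrays, 2 when only the 6 arrays compared were fitted, and 9 without heme array b; Ifi203 and Oasl1 passed under every alternative tried.

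The genes that make and transmit the interferon signal were followed in a list of 22, of which 21 were measured. With LPS 13 rose, led by Ifnb1 (7.05 ± 0.74), Irf7 (3.98 ± 0.77) and Irf1 (3.89 ± 0.56), and 2 fell, Mavs (-1.23 ± 0.16) and Irf3 (-0.89 ± 0.12), the adaptor of RNA sensing and the factor that starts Ifnb1. With heme in wild type 11 fell, led by Irf7 (-3.37 ± 0.77), Ifnb1 (-3.08 ± 0.74) and Irf1 (-2.96 ± 0.56), and Ticam1, which encodes TRIF, rose (1.06 ± 0.24). In the knockout with heme Ticam1 (0.84 ± 0.20) and Mavs (0.56 ± 0.13) rose and Tlr4 fell (-0.69 ± 0.17). Under heme and LPS the knockout was above wild type in Ifnb1 (4.49 ± 0.66), Irf1 (2.25 ± 0.50) and Socs1, the feedback inhibitor of cytokine receptors (1.18 ± 0.31), and below it in Tlr4 (-1.13 ± 0.19). Of all genes, 12.3% were called higher and 16.3% lower with LPS, and 8.34% and 6.35% with heme in wild type. With heme in the knockout these shares were 4.1% and 2.67%, and between the genotypes under heme and LPS 2.13% and 3.16%.

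A further 36 interferon-stimulated genes outside the 38, of which 35 were measured, were counted in the same fit. With LPS 30 rose, led by Ifit1bl1 (6.69 ± 0.97), Slfn4 (6.16 ± 0.94) and Slfn5 (5.02 ± 0.55). With heme in wild type 30 fell with a median of -1.91, beside -2.33 for the 36 members. In the knockout 7 fell with a median of -1.09, beside 5 and -0.97 for the members. Ifit1bl1 fell in both genotypes, by 6.53 ± 0.97 and 4.03 ± 0.80. In the interaction 0 of the 35 passed (0.24% of all genes passed above 0 and 0.707% below). Of all genes, 12.3% were called higher with LPS. With heme 6.35% were called lower in wild type and 2.67% in the knockout.

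Markers of cell types were measured as ratios to untreated macrophages, so they do not give the share of a cell type. With heme in wild type 8.34% of all genes were called higher and 6.35% lower, and in the knockout 2.67% were called lower. Of 8 macrophage markers 2 fell with heme in wild type, Fcgr1 by 5.38 ± 0.76 and Mertk by 3.08 ± 0.80, and Fcgr1 fell in the knockout by 2.44 ± 0.62. The mean ratio of the 8 on an array was 0.42 to 0.54 under LPS and -0.89 to -0.49 under heme and LPS in wild type. Of 10 neutrophil markers 2 rose with heme in wild type, S100a8 (2.05 ± 0.49) and Elane (1.08 ± 0.23), with array means of 0.14 to 0.76 under LPS and 0.55 to 1.18 under heme and LPS. Of 6 markers of plasmacytoid dendritic cells, which make much interferon, Bst2, itself a member, and Tcf4 (by 1.94 ± 0.29) fell, with array means of 0.25 to 0.46 and -0.17 to -0.04. Of 6 stromal markers Dcn fell (by 1.06 ± 0.33), and 0 of 6 dendritic cell, 0 of 4 B cell, 0 of 7 T and NK cell and 0 of 4 erythroid markers were called. The part of these genes in the values of the members was not tested.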

How the data were processed

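Each array held the RNA of 1 macrophage sample in Cy5 against untreated cells in Cy3. The authors deposited log10 ratios, made with Agilent Feature Extraction 10.5.1.1 per the submitters' processing notes. That they are log10 was inferred from the values, Cy5 over Cy3 follows the design text, and which background and dye correction was used is not known. They were converted to log2, and the mean over a gene's probes was taken: of 44397 features, 33026 had a symbol, for 22485 genes. Group means were fitted over all 18 arrays in limma 3.58.1 (R 4.3.3), 2-sided, with Benjamini-Hochberg adjustment, in 7 comparisons; the code was tested on simulated data. The number of arrays limits the precision.

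The members and lists were chosen with earlier results of these data known. Values on every array are given, per role, for the 2 members with the largest and the 1 with the smallest heme difference in wild type, and for those called between genotypes. Probes are given where their LPS or heme differences lay over 1 log2 unit apart or where only some were called. Of the other lists, the 3 largest differences and those against the list's direction are named. The design text calls the replicates independent. Letters were taken to pair arrays where every same-letter correlation of deviations over genes was over 0.1. These were 0.22 to 0.59 for the knockout groups, 0.20 to 0.58 for the LPS groups and 0.23 to 0.53 for the heme groups. The rule did not weigh arrays of different letters. In the knockout LPS array c correlated at 0.363 with heme array b, above its value with heme array c. Alternatives were quantile normalization, median centring, other rules for probes and for values of 0, array weights, a replicate block and leaving out arrays.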

Additional observations from a re-analysis of the deposited data

Results flagged for a closer look

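Among the 4 knockout arrays under LPS, array d had Mx2 at 5.76, apart from the nearest array at 5.36, a gap of 0.86 of the group's range. It was 1 of 72 groups of 4 or 5 arrays examined, and chance sets apart about 1 in 20. The heme effect on Trim21 differed between the genotypes by 2.07 (knockout minus wild type), the 1 member for which the test of that difference passed.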

How the results depend on the processing

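Counts of members called moved by over 1.5 times with the settings below, and the cause was not tested. Fits on the arrays compared only have fewer degrees of freedom and take the spread from those groups alone. In such a fit the count for LPS against albumin, 33 in the main fit, was 35. For wild-type heme against LPS the count of lower members was 33, was 7 with the arrays of the groups compared only, and ran from 16 to 34 when single arrays were left out. For knockout heme against LPS it was 5, and 1 with quantile normalization, 2 with the arrays compared only, 15 without array a of both heme groups, and 1 to 6 leaving out single arrays. With the replicate block it was 11, and 0 with the replicate block on the arrays compared only. For the difference of the heme effects the count of higher members was 1, and 7 with array weights, 8 without array a of both heme groups, and 1 to 8 leaving out single arrays. Between the genotypes under heme and LPS it was 5, and 12 with values at 0 as missing, 10 without genes at 0 on over 9 arrays, 1 with the arrays compared only, 24 with array weights, 20 without the LPS-treated arrays lettered a, 19 without array a of both heme groups, 0 with the replicate block on the arrays compared only, and 1 to 21 leaving out single arrays. For wild-type heme and LPS against albumin the count of higher members was 6, and 2 with the arrays compared only, 3 without the LPS-treated arrays lettered a, 3 without array a of both heme groups, and 3 to 9 leaving out single arrays. The count of lower members was 0, and 1 with zeros missing or with genes at 0 on over 9 arrays left out, 2 with the arrays compared only, 5 with array weights, 2 with the replicate block, 3 without the LPS-treated arrays lettered a, 2 without array a of both heme groups, and 0 to 1 leaving out single arrays. Between the genotypes under heme and LPS, the replicate block on the arrays compared only called 0 of all 22485 genes. No result changed direction while called. Over single genes and settings the call stayed in 1703 cases, was gained in 97 and was lost in 226. Leaving out array a of both heme groups, and the replicate block on the arrays compared only, were chosen after seeing the data. The letters of the wild-type LPS and heme arrays (same-letter correlations of 0.01 to 0.48) and of the albumin arrays did not meet the rule for pairing, and with the replicate block 34 members were called lower with heme in wild type. The ratios carry no signal over background, so a limit of detection could not be set for any member.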
